A study of Yarrowia lipolytica with 11 samples.

Results

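The genes described here had a higher mean level with hexanoic acid in both strains of an experiment on the oleaginous yeast Yarrowia lipolytica. They number 33 of the 7135 genes counted. Each was chosen from the group means of the deposited normalised read counts, with 1 added to every mean. The treated mean was at least 3 times the untreated mean in each strain, the untreated mutant was under 2 times the untreated wild type, the treated mutant was over 0.5 times the treated wild type, and the treated wild type was at least 50. Of 3 genes that were left out by name, 2 met these thresholds (YALI0_C09284g and YALI0_E12419g) and YALI0_B01848g did not. All 4 group means entered the choice, so the fold changes below describe the chosen genes and lend no support to the choice.

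RNA sequencing compared a wild type with a mutant that lacks pex10 and carries a plasmid for overexpression of DGA1, each grown in YPC medium without or with hexanoic acid at 1 g/L and harvested in exponential phase. The labels tie the replicates to independent colonies. The untreated wild type, the treated wild type and the treated mutant had 3 libraries each, and the untreated mutant had 2. The deletion and the plasmid occur together in every mutant library, so their contributions cannot be told apart, and the labels name no empty plasmid in the wild type.

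Hexanoic acid is a medium-chain fatty acid and a weak acid. Yeasts activate such acids to acyl-CoA thioesters and break them down by beta-oxidation, which in Y. lipolytica takes place largely in peroxisomes. PEX10 encodes a ubiquitin ligase of the peroxisomal membrane that is needed for the import of matrix enzymes, and DGA1 encodes a diacylglycerol acyltransferase that makes storage triacylglycerol. The tables identify nuclear genes by locus tag only. Of 6447 locus tags of the usual chromosomal form, 0 matched the reference gene table used here, so the 33 genes carry no names or functions below, and the levels of PEX10 and DGA1 were not checked in these libraries.

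Library totals ran from 9988288 to 17519857 counts. The 33 genes together held 0.210% ± 0.0096 of all counts in the untreated wild type (mean ± SD, n = 3) and 1.14% ± 0.0346 in the treated wild type (n = 3). In the mutant the share was 0.215% ± 0.0195 without acid (n = 2) and 0.991% ± 0.157 with acid (n = 3). The untreated strains differed by less than these SDs. The treated mutant libraries spread more widely, at 1.16%, 0.973% and 0.844% in replicates 1, 2 and 3, than the treated wild-type libraries, at 1.16%, 1.10% and 1.16%.

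**Figure D1:**
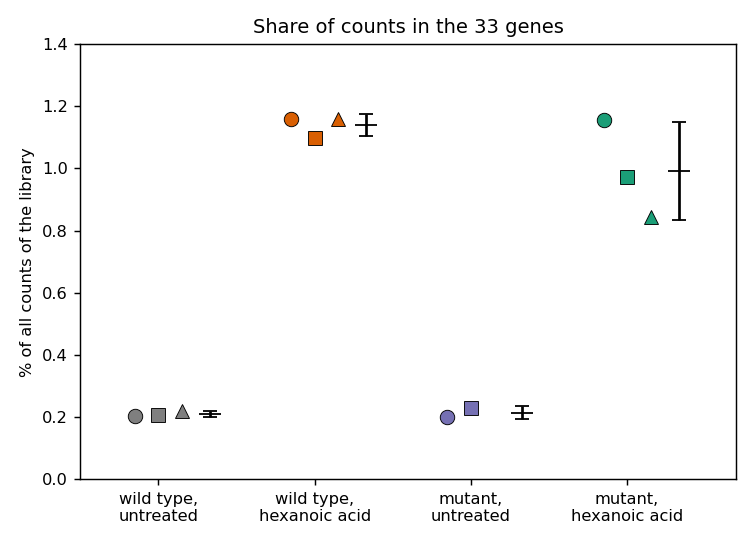
Share of all counts of a library that fell in the 33 genes, in percent, by group. Circles, squares and triangles are replicates 1, 2 and 3, and the black bars are the mean ± SD. Untreated libraries lie between 0.201% and 0.229%, and treated libraries between 0.844% and 1.16%.

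The set is a small part of the acid response of the wild type. With a treated wild-type mean of at least 50, 674 genes reached the acid fold of 3 in the wild type, and 75 of them also reached it in the mutant. Of the other 599, 508 were already at 2 times the untreated wild type or more in the untreated mutant, and 91 were not. The limit on the untreated mutant reduced the 75 genes to 48, the limit on the treated mutant to 35, and the genes left out by name to 33. A further 13 genes reached the fold in the mutant but not in the wild type.

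With acid the normalised means of the 33 genes were 3.16 to 26.1 times the untreated means in the wild type, with a median of 5.62, and 3.03 to 27.0 times in the mutant, with a median of 4.52. In 11 genes both folds were at least 5. The wild-type fold was at least 10 in 8 genes and the mutant fold in 2. All 33 passed the filter on low counts. edgeR's quasi-likelihood test with Benjamini-Hochberg adjustment called 33 of 33 higher in the wild type, where 28.5% of all 6301 tested genes were called higher, and 32 of 33 in the mutant, where 7.95% were. The exception was YALI0_E35046g in the mutant. Both strains together called 32 of 33, against 6.68% of all genes. Median log2 changes were 2.49 (wild type) and 2.18 (mutant), beside −0.01 for all genes in each. The rule used both contrasts, so nothing is read from these counts or medians.

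**Figure D2:**
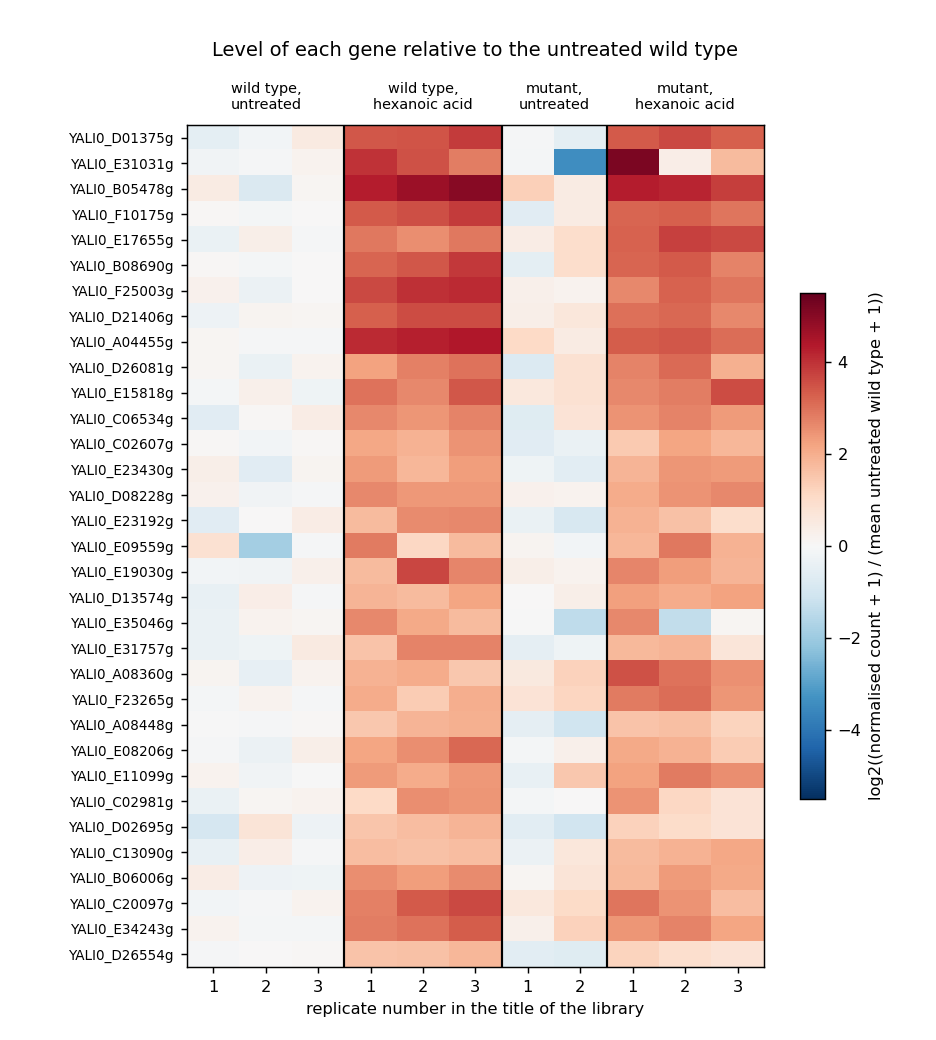
Level of each of the 33 genes in the 11 libraries, as log2 of the normalised count relative to the mean of the untreated wild type, with 1 added to both. Rows are ordered by the smaller of the 2 acid folds. Columns are libraries in 4 groups. Treated libraries are red in nearly all rows. YALI0_E31031g and YALI0_E35046g differ most between libraries of the mutant.

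YALI0_D01375g had the largest smaller fold of the set, and its responses in the strains differed by less than their standard errors. It stood at 474, 608 and 969.7 normalised counts in the untreated wild type, and at 7367, 7458 and 9951 in the treated wild type. In the mutant it stood at 655 and 465 without acid, and at 7096, 8372 and 6593 with acid. The treated libraries of both strains overlap each other and lie far above all untreated ones. With acid its log2 change was 3.60 ± 0.29 in wild-type and 3.72 ± 0.35 in mutant cells (edgeR estimate ± standard error here and below).

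YALI0_B05478g had the largest wild-type fold. It rose from 425, 182 and 336 to 6224, 8317 and 10108 normalised counts in the wild type. In the mutant it rose from 779 and 434 to 6292, 5727 and 4360.3. Both untreated mutant libraries lie above every untreated wild-type library, a difference that was not called (edgeR adjusted p = 0.0561). The treated groups overlap. The log2 changes were 4.70 ± 0.38 (wild type) and 3.17 ± 0.42 (mutant).

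YALI0_F25003g and YALI0_A04455g also had the smaller log2 change in the mutant, with less within-group spread than YALI0_B05478g. YALI0_F25003g rose from 437, 297 and 375 to 4574, 5919 and 6353 normalised counts in the wild type, and from 445 and 423 to 2332, 3510.3 and 2808 in the mutant. YALI0_A04455g rose from 89.0, 79.5 and 79.8 to 1441, 1636 and 1779.7 in the wild type, and from 180.4 and 115 to 830.5, 901 and 705 in the mutant. In both genes every treated mutant library lies below every treated wild-type library. The log2 changes of YALI0_F25003g were 3.92 ± 0.23 and 2.74 ± 0.26, and those of YALI0_A04455g were 4.29 ± 0.22 and 2.46 ± 0.24, in the wild type and the mutant.

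YALI0_E17655g differed from these in that the mutant mean was the higher one in both conditions, a difference called without acid and not with acid. It stood at 624, 994 and 768 normalised counts in the untreated wild type and at 1060.5 and 1571 in the untreated mutant. With acid it stood at 6015, 4736 and 6009.9 in the wild type and at 7452, 10895 and 9965 in the mutant. The strains do not overlap in either condition, and the log2 changes with acid differed by less than their standard errors, at 2.81 ± 0.25 and 2.85 ± 0.30. YALI0_D21406g went from 37.0, 49.5 and 49.0 to 449, 554 and 551 in the wild type and from 56.5 and 70.6 to 378, 414 and 286 in the mutant. Its log2 changes were 3.51 ± 0.21 and 2.5 ± 0.24.

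The 10 genes with the largest smaller fold also included YALI0_F10175g, YALI0_B08690g and YALI0_D26081g. YALI0_F10175g stood at 440.0, 383 and 421 normalised counts in the untreated wild type, 4255, 4864 and 6026 in the treated wild type, 270.2 and 562 in the untreated mutant and 3784, 4024 and 3197 in the treated mutant. YALI0_B08690g stood at 983, 849.8 and 948, then 8406, 9915 and 13906, then 644 and 1798, then 8456, 9753 and 6197, in the same order of groups. YALI0_D26081g stood at 443, 314 and 468, then 1922, 2825 and 3257, then 239 and 738, then 2711, 3531 and 1588. In each of them untreated mutant replicate 1 lies below, and replicate 2 above, every untreated wild-type library. The log2 changes in the wild type and the mutant were 3.60 ± 0.26 and 3.15 ± 0.30 for YALI0_F10175g, 3.53 ± 0.36 and 2.75 ± 0.41 for YALI0_B08690g, and 2.7 ± 0.41 and 2.43 ± 0.47 for YALI0_D26081g.

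**Figure D3:**
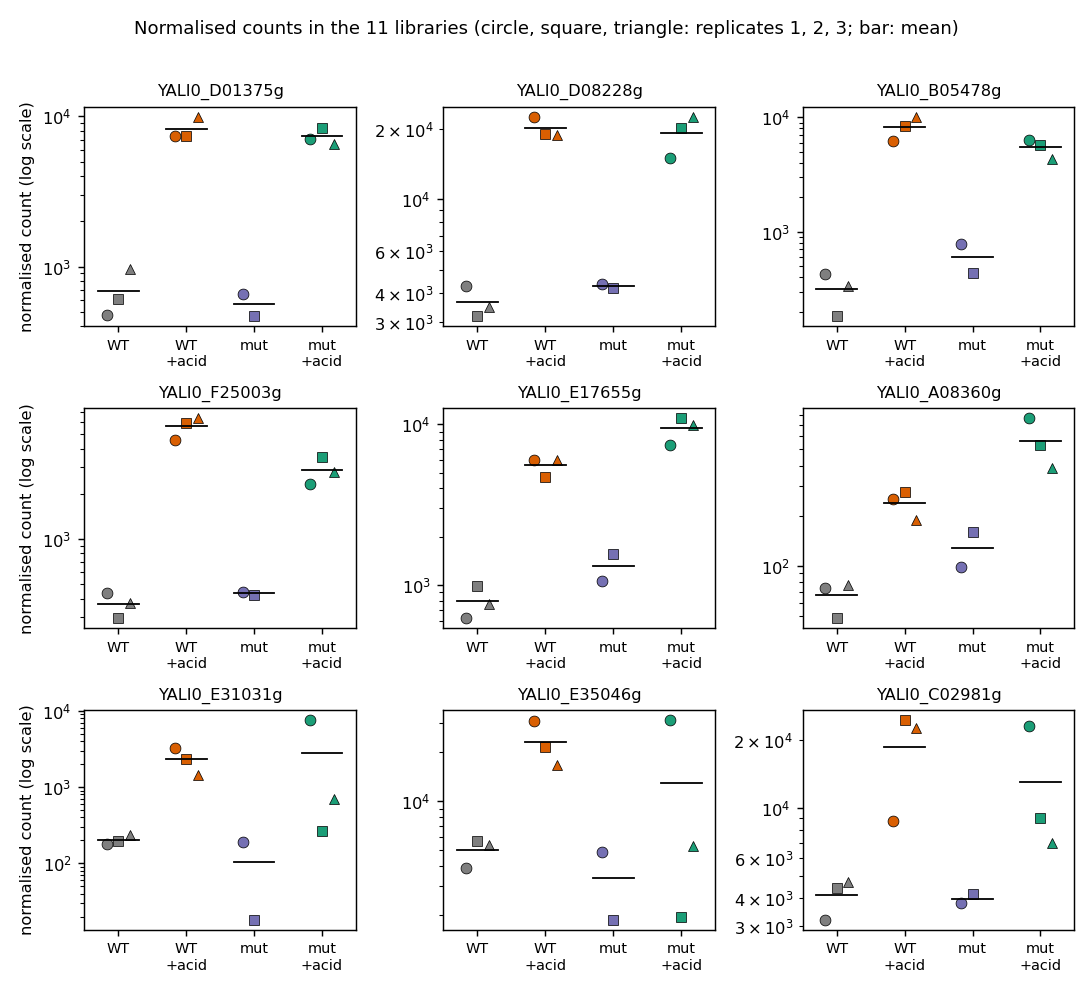
Normalised counts of 9 of the genes in each library, on a log axis, by group (WT, wild type; mut, mutant). Circles, squares and triangles are replicates 1, 2 and 3, and the bars are group means. In YALI0_D01375g the treated strains overlap, in YALI0_F25003g the treated mutant lies below the treated wild type, and in YALI0_E31031g and YALI0_E35046g treated mutant replicate 1 stands far above replicates 2 and 3.

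Among the 6 genes with the most reads in the treated wild type, YALI0_D08228g had the smallest within-group spread (pooled SD of log2 normalised counts 0.215). It went from 4282, 3163 and 3474 to 22421, 19025 and 18935 in the wild type, and from 4343 and 4173 to 15022, 20159.5 and 22549 in the mutant. The strains overlap with acid, and the log2 changes were 2.46 ± 0.22 and 2.18 ± 0.26. YALI0_E08206g went from 1602, 1366 and 2096 to 7595, 10032 and 15163 in the wild type, and from 1569 and 2035 to 7111, 6419 and 4389.8 in the mutant. Here every treated mutant library lies below every treated wild-type library, a difference that was not called (edgeR adjusted p = 0.0717). The log2 changes were 2.69 ± 0.30 and 1.73 ± 0.33, and the mutant call was lost without untreated mutant replicate 1 (1.57).

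In YALI0_E31031g and YALI0_E35046g the mutant values rested on single libraries. YALI0_E31031g stood at 180.0, 197 and 237 normalised counts in the untreated wild type and at 3227, 2302 and 1458 in the treated wild type. In the mutant it stood at 189.5 and 18.3 without acid, and at 7533, 267 and 695 with acid. YALI0_E35046g stood at 3869.7, 5694 and 5401 in the untreated wild type and at 31089.5, 21365 and 16545 in the treated wild type. In the mutant it stood at 4873 and 1871 without acid, and at 31356, 1957 and 5336 with acid. Both genes were highest in treated mutant replicate 1 and lowest in untreated mutant replicate 2. For YALI0_E35046g treated replicate 2 lay below untreated replicate 1, so the mutant groups overlap.

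The within-group SD of log2 levels was 1.63 for YALI0_E31031g and 1.18 for YALI0_E35046g, where the median of the 33 genes was 0.363 and 25 genes were under 0.5. The log2 change of YALI0_E31031g in the mutant was 4.76 ± 1.38. It was 2.21 and no longer called without treated mutant replicate 1, and the call was also lost without untreated mutant replicate 1 (7.28) or 2 (3.87) or untreated wild-type replicate 3 (4.76). In the wild type its change was 3.51 ± 1.08, and the call was lost without untreated wild-type replicate 2 (3.48). YALI0_E35046g changed by 2.21 ± 0.79 in the wild type, a call lost without any 1 of the 3 untreated wild-type libraries (2.06, 2.31 and 2.26) and without treated wild-type replicates 1 (1.92) or 2 (2.26). In the mutant its estimate was 1.92 ± 0.90, which did not pass (edgeR adjusted p = 0.173). That estimate was 0.11 without treated mutant replicate 1 and 2.80 without untreated mutant replicate 1, and it passed in none of the alternative fits. Without treated mutant replicate 1 neither gene met the thresholds of the set.

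YALI0_C02981g also split its libraries, in opposite ways in the strains. It stood at 3209.7, 4419.7 and 4716 normalised counts in the untreated wild type and at 8780.1, 24370.5 and 22465 in the treated wild type. In the mutant it stood at 3788 and 4149 without acid, and at 22996, 8997 and 7014 with acid. Replicate 1 was thus the lowest treated wild-type library and the highest treated mutant library, although the labels do not say that replicate numbers pair libraries across strains. The log2 changes were 2.17 ± 0.46 and 1.71 ± 0.53. The mutant change was 1.01 and not called without treated mutant replicate 1. Its call, near the threshold, was also lost without treated mutant replicate 2 (1.92), either untreated mutant library (1.67 and 1.76), any untreated wild-type library (1.71 in each case) or treated wild-type replicates 2 or 3 (1.71 in both).

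YALI0_E09559g had the fewest reads of the set. Its normalised counts were 23.0, 2.65 and 11.9 in the untreated wild type, 96.8, 28.6 and 44.3 in the treated wild type, 14.1 and 11.3 in the untreated mutant and 47.1, 99.2 and 49.1 in the treated mutant. The treated and untreated libraries do not overlap within a strain, but the lowest treated wild-type library is only 5.55 above the highest untreated one. The log2 changes were 2.21 ± 0.63 and 2.36 ± 0.73. The wild-type call was lost without treated wild-type replicate 1 (1.56). The mutant call was lost without any 1 of the 5 mutant libraries (1.92 to 2.54) or without untreated or treated wild-type replicate 3 (2.36 in both).

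Over the set, every treated wild-type library was above every untreated one in 33 of 33 genes, against 31.4% of all genes tested. In the mutant this held in 32 of 33 (26.2% of all genes), and in both strains in 32 of 33 (16.8%). The rule used these values as well. With each of the 11 libraries left out in turn, 23 of the 32 genes called in both strains kept both calls in every fit. That count was not made for all genes, and the rule used both contrasts, so nothing is read from it.

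**Figure D4:**
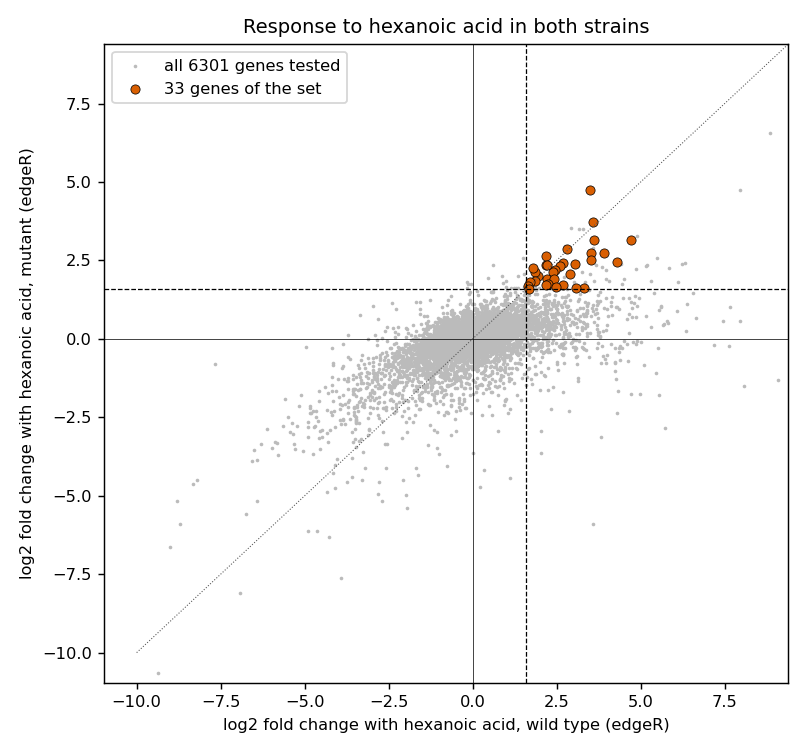
Log2 fold change with hexanoic acid in the wild type (horizontal) and the mutant (vertical) for all 6301 genes tested (grey) and the 33 genes of the set (orange), from edgeR. Dashed lines mark the 3-fold thresholds and the dotted line marks equal change. The set lies in the upper right corner by construction, with medians of 2.49 and 2.18.

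Within groups the correlations between the genes covered a wide range. Over all 528 pairs of the 33 genes, the correlation of the deviations from group means of the log2 levels, over the 11 libraries, had a median of 0.143 and ran from −0.885 to 0.994. These correlations are descriptive, and all points share libraries and their scaling. With group means removed, the 2 untreated mutant libraries deviate by equal and opposite amounts, and few independent values stand behind each r. The correlations therefore cannot show how widely the genes vary together. The closest pair was YALI0_F10175g and YALI0_B08690g (r = 0.994), and YALI0_D26081g and YALI0_E34243g followed YALI0_B08690g with r of 0.953 and 0.968. YALI0_E34243g stood at 123, 101 and 98.8 normalised counts in the untreated wild type, 767, 866 and 1078 in the treated wild type, 131 and 259 in the untreated mutant and 581, 713 and 485 in the treated mutant. The 4 genes share a higher level in replicate 2 than in replicate 1 of the untreated mutant, which held in 19 of the 33 genes. YALI0_E31031g and YALI0_E35046g formed another close pair (r = 0.959). YALI0_C02981g and YALI0_C20097g (r = 0.882) were highest in replicate 1 of the treated mutant and lowest in replicate 1 of the treated wild type. Neither trait is particular to them: 12 of the 33 genes had the first and 18 had the second. The pairs in this paragraph were picked after their values were seen.

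Without acid most genes of the set had the higher mean in the mutant, and with acid most had the higher mean in the wild type. The ratio of the untreated mutant to the untreated wild type ran from 0.510 to 1.97 with a median of 1.17, and was above 1 in 22 genes and below 1 in 11. The ratio of the treated strains ran from 0.502 to 2.35 with a median of 0.757, and was above 1 in 10 genes and below 1 in 23. The limits of 2 on the first ratio and 0.5 on the second cut these ranges on 1 side each. The direction without acid rested on 1 library: the median log2 difference of the 33 genes was 0.23 with both untreated mutant libraries and −0.03 without replicate 2.

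**Figure D5:**
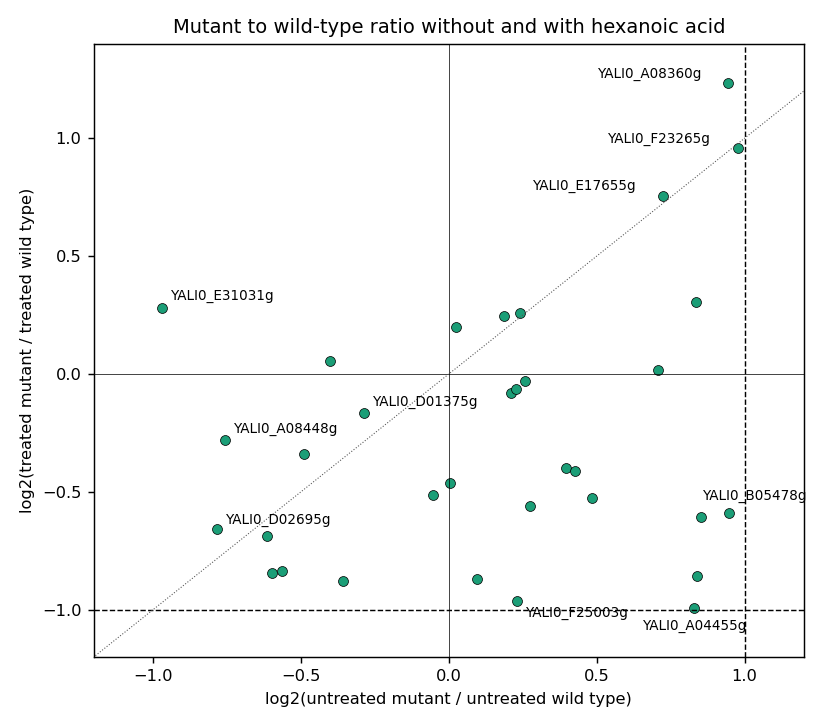
Log2 ratio of mutant to wild type for the 33 genes without acid (horizontal) and with acid (vertical), from normalised group means plus 1. Dashed lines mark the limits set by the rule, and the dotted line marks equal ratios. YALI0_A08360g, YALI0_F23265g and YALI0_E17655g are among the genes above 0 on both axes, which also include YALI0_E11099g and YALI0_C13090g. YALI0_F25003g and YALI0_A04455g lie at the lower limit.

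With acid YALI0_A08360g and YALI0_F23265g had the highest ratios of mutant to wild type. Without acid the highest were those of YALI0_F23265g (1.97) and YALI0_B05478g (1.93), with YALI0_A08360g next (1.92). YALI0_A08360g stood at 74.0, 48.6 and 76.7 normalised counts in the untreated wild type, 253, 276 and 188 in the treated wild type, 97.8 and 159 in the untreated mutant and 767, 534 and 388 in the treated mutant. YALI0_F23265g stood at 47.0, 58.3 and 48.2, then 213, 138 and 209, then 87.7 and 116, then 372, 436 and 283, in the same order of groups. In both genes every mutant library lies above every wild-type library of the same condition. Their log2 changes with acid in the wild type and the mutant were 1.84 ± 0.30 and 2.13 ± 0.34 for YALI0_A08360g and 1.87 ± 0.24 and 1.84 ± 0.27 for YALI0_F23265g.

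YALI0_D02695g had a low ratio without acid, together with YALI0_E31031g. It stood at 125, 389.6 and 195 normalised counts in the untreated wild type, 676, 759 and 872 in the treated wild type, 159 and 115 in the untreated mutant and 576, 482 and 402 in the treated mutant. The untreated strains overlap and the treated strains do not, but the difference between the treated strains was not called (edgeR adjusted p = 0.233). Its log2 changes with acid were 1.70 ± 0.34 and 1.83 ± 0.40, the latter lost as a call without untreated mutant replicate 2 (1.59). YALI0_D26554g, the gene with the smallest within-group SD (0.150), stood at 1976, 2062 and 2114, then 6091, 6292 and 7217, then 1372 and 1306, then 4822, 3887 and 3472. Every mutant library of it lies below every wild-type library of the same condition, and its log2 changes were 1.67 ± 0.17 and 1.60 ± 0.20.

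Without acid, edgeR called 5 of 33 genes higher in the mutant (22.8% of all genes) and 2 lower (15.3%). The higher ones were YALI0_E17655g (log2 difference 0.73 ± 0.26), YALI0_A04455g (0.84 ± 0.22), YALI0_A08360g (0.96 ± 0.33), YALI0_F23265g (1.00 ± 0.27) and YALI0_E34243g (0.86 ± 0.28). The lower ones were YALI0_D26554g (−0.61 ± 0.19) and YALI0_A08448g (−0.75 ± 0.24). With only the 2 groups compared in the fit, none of these 7 was called (edgeR adjusted p from 0.0505 to 0.0941) and YALI0_C20097g was. Both untreated mutant libraries bear on these calls. Without replicate 2 only YALI0_A04455g was called among the 7, YALI0_B05478g was called in addition, and YALI0_E17655g (0.44), YALI0_A08360g (0.58), YALI0_F23265g (0.80), YALI0_E34243g (0.31), YALI0_D26554g (−0.55) and YALI0_A08448g (−0.46) were not. Without replicate 1 YALI0_A04455g (0.46) and YALI0_D26554g (−0.66) were lost, while other genes of the set gained a call. Among untreated wild-type libraries, calls were lost without replicate 1 (YALI0_E17655g at 0.59, YALI0_A08360g at 1.05 and YALI0_A08448g at −0.75), replicate 2 (YALI0_A08360g at 0.78 and YALI0_E34243g at 0.82) and replicate 3 (YALI0_E17655g at 0.70, YALI0_A08360g at 1.07, YALI0_E34243g at 0.79, YALI0_D26554g at −0.60 and YALI0_A08448g at −0.72). YALI0_E17655g was also lost without any 1 treated wild-type library or treated mutant replicates 2 or 3 (0.73 in each fit), and YALI0_A08360g without treated wild-type replicate 1 or treated mutant replicate 2 (0.96 in both).

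With acid, 2 of 33 were called higher in the mutant (5% of all genes), YALI0_A08360g (1.25 ± 0.29) and YALI0_F23265g (0.97 ± 0.23). YALI0_A04455g (−0.98 ± 0.19), YALI0_F25003g (−0.95 ± 0.21) and YALI0_D26554g (−0.67 ± 0.17) were called lower (5.68% of all genes). None of the 5 was called without treated wild-type replicate 3, when their estimates were 1.10, 1.05, −0.91, −0.85 and −0.60. Without treated wild-type replicate 2 YALI0_A04455g alone was called, and the others were at 1.36, 0.80, −0.91 and −0.70. Without treated mutant replicate 1 YALI0_A08360g was lost (0.97), while other genes of the set gained a call. Without replicate 2 the lost calls were YALI0_A08360g (1.28), YALI0_F23265g (0.82) and YALI0_D26554g (−0.64), and without replicate 3 they were YALI0_A04455g (−0.90), YALI0_F25003g (−0.93) and YALI0_D26554g (−0.58). All estimates kept their direction.

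The acid fold was larger in the wild type in 22 genes and larger in the mutant in 11, a count not made for all genes. The test of the difference between the responses called 6 of 33 genes, each with the smaller rise in the mutant (15.5% of all genes were called in that direction), and 0 with the larger rise (10% of all genes). The largest differences were those of YALI0_A04455g (−1.83 ± 0.29) and YALI0_C20097g (−1.69 ± 0.45). YALI0_C20097g went from 226, 245 and 293 to 1752, 2682 and 3185 normalised counts in the wild type, and from 385 and 528 to 1981, 1405 and 822 in the mutant. Its changes were 3.32 ± 0.33 and 1.62 ± 0.35, the mutant call being lost without untreated mutant replicate 1 (1.43), and its response difference was lost without untreated mutant replicate 2 (−1.47). For YALI0_D01375g the response difference was 0.12 ± 0.39 and for YALI0_F23265g it was −0.03 ± 0.34. Neither passed, which does not show that the strains respond alike in them.

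Several genes lie close to a threshold of the rule. In the wild type the acid fold of YALI0_C13090g, inside, was 3.16, and that of YALI0_D25586g, outside, was 2.96. In the mutant YALI0_D26554g was inside at 3.03 and YALI0_E01298g outside at 2.98. The ratio of the untreated strains was 1.97 for YALI0_F23265g, inside, and 2.15 for YALI0_F27687g, outside. That of the treated strains was 0.502 for YALI0_A04455g, inside, and 0.493 for YALI0_F10857g, outside. At the minimum level of 50 YALI0_E09559g was inside at 57.6, and the 1 gene outside that met the other thresholds, YALI0_B07051g, was well below it at 19.2. YALI0_C13090g itself stood at 387, 653 and 485 normalised counts in the untreated wild type and 1629.6, 1549 and 1646 in the treated wild type. In the mutant it stood at 410.3 and 790.2 without acid and at 1684, 1905 and 2191 with acid. Its treated and untreated libraries do not overlap within a strain, as in 32 of the 33 genes. It left the set without untreated wild-type replicate 1, untreated mutant replicate 1 or treated mutant replicate 3. Of the genes left out by name, YALI0_C09284g had acid folds of 7.57 and 11.4 and YALI0_E12419g of 6.70 and 7.78 in the wild type and the mutant. YALI0_B01848g had a mutant fold of 2.97 and an untreated strain ratio of 3.46.

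The other 10 genes had wild-type folds from 3.82 (YALI0_D13574g) to 8.30 (YALI0_E15818g) and mutant folds from 3.14 (YALI0_B06006g) to 6.21 (YALI0_E23430g). YALI0_E15818g stood at 128, 165 and 118 normalised counts in the untreated wild type, 1099.7, 867 and 1466 in the treated wild type, 205 and 244 in the untreated mutant and 870.1, 965 and 1635 in the treated mutant. YALI0_E23430g stood at 971, 506 and 869, then 3967, 2772 and 3879, then 663 and 520.1, then 2857, 4179 and 4005, in the same order of groups. The treated strains overlap in both genes. YALI0_E19030g split the treated wild-type libraries most of these 10, at 640.0, 2466 and 1237 after 176, 168 and 236 without acid, and went from 245 and 223 to 1267, 962 and 719 in the mutant. Its mutant change of 2.07 ± 0.47 was lost as a call without untreated mutant replicate 1 (2.16) or 2 (1.99). YALI0_E11099g split the untreated mutant, at 845 and 3141 before 5233, 8052 and 6513 with acid, and went from 1266, 974 and 1106 to 5590.1, 4597 and 5816 in the wild type. Its mutant change of 1.74 ± 0.43 was lost without untreated mutant replicate 1 (1.09) or treated mutant replicate 2 (1.58).

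YALI0_E23192g and YALI0_E31757g had lower means in the treated mutant than in the treated wild type, a difference that did not pass. YALI0_E23192g stood at 704, 1072 and 1434 normalised counts in the untreated wild type, 3613, 6525 and 6736 in the treated wild type, 831 and 584 in the untreated mutant and 4037, 3292 and 2073 in the treated mutant. YALI0_E31757g stood at 46.0, 50.4 and 84.6, then 178, 399.7 and 405, then 42.3 and 51.4, then 211, 226 and 97.3. In both genes the means of the treated strains differ, but treated wild-type replicate 1 overlaps the treated mutant. The mutant change of YALI0_E31757g, 1.92 ± 0.46, was lost as a call without untreated mutant replicate 1 (1.81) or 2 (2.05) or treated mutant replicate 2 (1.71). YALI0_C06534g, YALI0_C02607g, YALI0_D13574g and YALI0_B06006g kept both calls in every such fit. Their log2 changes in the wild type and the mutant were 2.60 ± 0.34 and 2.32 ± 0.39, 2.19 ± 0.22 and 2.35 ± 0.26, 1.96 ± 0.24 and 2.01 ± 0.28, and 2.49 ± 0.25 and 1.66 ± 0.28.

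By the chromosome letter in their tags, 12 of the 33 genes were on E, 7 on D, 5 on C and 3 each on A, B and F. The table holds 1463 tags of E, 1100 of D, 932 of C, 687 of A, 948 of B and 1317 of F, so that the share of tags in the set was 0.820% for E and 0.228% for F. Only 1 pair of members lay within 5 listed tags of each other, YALI0_A08360g and YALI0_A08448g, which are 3 listed tags apart. They went opposite ways between the untreated strains. YALI0_A08448g stood at 2057, 2043 and 2216 normalised counts in the untreated wild type and at 1499 and 989.7 in the untreated mutant, all mutant libraries below all wild-type ones, whereas YALI0_A08360g was higher in the mutant as given above.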

How the data were processed

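Per the submitters' processing notes, the tools used included STAR 2.7.9a, HTSeq 0.11.0 and DESeq2 1.32.0, with no role stated. Build, annotation and the strandedness used in counting are not given in these sources, so how reads of overlapping, antisense or near-identical genes were assigned is unknown. The authors deposited whole read counts per gene and library. The normalised values they deposited are a signal in which each library's counts were divided by a constant, which held for every value above 0 (relative tolerance 1e-06). Per the labels, libraries were directional and made from separate colonies.

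The genes were selected on the normalised values. Tests used the raw counts in R 4.3.3 with edgeR 4.0.16, TMM scaling and filterByExpr (6301 genes kept, 834 removed), with 1 mean per group fitted to all 11 libraries, robust quasi-likelihood F tests and Benjamini-Hochberg adjusted p under 0.05. Standard errors are the size of the log2 change over the square root of F. Rows without a locus tag stayed in the table (61 identifiers, 0.0275% to 0.0648% of counts). The test was tried on simulated counts first. The smallest chi-square per degree of freedom between libraries of 1 group was 38.8, so no library counted as a duplicate.

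The genes and lists were chosen with earlier results of these data known. Genes to name were the 10 with the largest smaller fold, the 6 with the highest treated wild-type level, the extremes of both strain ratios, the 2 most variable, and those nearest each threshold; the remaining genes were added after their values were seen. Planned lists by gene description, promoter motifs and levels per length were not used here, since the reference table gives no such entries for these tags. Alternatives were edgeR with DESeq2 size factors or total counts, no or stricter filters, DESeq2 1.42.0, fits to only the groups compared, a replicate block, other thresholds of the rule, and leaving out each library.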

Additional observations from a re-analysis of the deposited data

Results flagged for a closer look

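In 6 of the 33 genes the test of the difference between the strains' responses to hexanoic acid passed the threshold (edgeR, adjusted p under 0.05), and in each the rise was smaller in the mutant. Of all 6301 genes tested 15.5% were called in that direction, so the count is near the background. The log2 response difference was −1.83 for YALI0_A04455g, −1.69 for YALI0_C20097g, −1.54 for YALI0_B05478g, −1.46 for YALI0_E34243g, −1.19 for YALI0_F25003g and −1.01 for YALI0_D21406g. The thresholds of the rule bound this difference, so it describes these genes only. The calls of YALI0_A04455g and YALI0_F25003g held with any 1 of the 11 libraries left out. Those of YALI0_C20097g (−1.47) and YALI0_E34243g (−0.91) were lost without untreated mutant replicate 2. The call of YALI0_D21406g was lost without that library (−0.86), untreated wild-type replicate 1 (−0.90), treated wild-type replicates 2 (−0.96) or 3 (−0.97) and treated mutant replicate 3 (−0.88), and with scaling by total counts only (−0.93). The call of YALI0_B05478g was lost without untreated wild-type replicates 2 (−1.26) or 3 (−1.57), treated wild-type replicates 2 (−1.53) or 3 (−1.36), untreated mutant replicate 1 (−1.03) and treated mutant replicates 2 (−1.57) or 3 (−1.40).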

How the results depend on the processing

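The rule gave 51 genes with an acid fold of 2.5 and 18 with 4, in place of 33, and 27 to 49 with 1 library left out, of which 24 to 33 were among the 33. The highest count came without untreated mutant replicate 2, and 14 of the 33 genes met the rule in every such removal. With TMM-scaled CPM it gave 27 genes, 26 of them shared. Members called with acid numbered 31 to 33 in the wild type and 24 to 32 in the mutant with 1 library left out. With only the groups compared, 27 were called with acid in the mutant. That fit ended the mutant acid calls of YALI0_E31031g, YALI0_D26081g (edgeR adjusted p = 0.0502), YALI0_E11099g, YALI0_C02981g and YALI0_C20097g. The replicate blocks by title number and description number called 30 and 29. Between the untreated strains, 7 genes were called, and 2 to 8 with 1 library left out. The count was 9 with total counts only and 8 with DESeq2. With only the groups compared it was 1, a gene not among the 7. It was 2 with the replicate block by title number and 4 with the block by description number, both within the 7. Between the treated strains, 5 were called, and 0 to 7 with 1 library left out, 8 with DESeq2 and 3 with either replicate block. The response difference was called in 6 genes, in 3 to 7 with 1 library left out and in 5 with total counts only. It was called in 6 with the block by title number and in 4 with the block by description number. The latter block ended the calls of YALI0_B05478g and YALI0_D21406g. Shares of all genes called under the alternatives are not given, so these member counts cannot be told from changes over all genes. Same-numbered libraries of different groups had correlations of deviations from group means from −0.455 to 0.366. Libraries with different title numbers had correlations from −0.253 to 0.487. The best match of a library shared its title number in 4 of 11 cases (3 by description number). With so few libraries these values show no pairing by number, but they cannot exclude one. Of 1590 recomputed log2 changes of single genes, 1464 kept their direction and side of the threshold, 126 kept the direction and lost the call, and 0 reversed. For the strain and response differences only genes called in the main fit were followed, so new calls there could not enter. Many of the fits left out a library of a group outside the comparison, which hardly moves the estimate. The 33 genes' group of 2 untreated mutant libraries limits what the mutant comparisons can show.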
